A study of Mus musculus with 8 samples.

Results

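The cytosolic ribosomal protein genes of the mouse, which encode the proteins of the 40S and 60S ribosomal subunits, were examined in the submandibular gland, one of the major salivary glands. They were taken by name: every protein-coding gene in the GENCODE M21 annotation of GRCm38 called Rps or Rpl with a number, plus Rplp0, Rplp1, Rplp2 and Rpsa, leaving out the Rps6k kinases, Rps19bp1 and pseudogenes. The rule found 85 of the 54838 genes counted, 33 of the small subunit and 52 of the large subunit. Of these, 83 had enough reads to be tested, 33 and 50. Rpl10l and Rpl39l did not.

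RNA sequencing of whole glands was done in 8 libraries from male mice, 4 from Dp16 mice and 4 from wild-type (WT) mice, both labelled as C57BL/6J, with the age not given in the sources used here. Dp16 mice, listed as B6.129S7-Dp(16Lipi-Zbtb21)1Yey/J, are a model of Down syndrome that carries an extra copy of the part of chromosome 16 from Lipi to Zbtb21 in every cell, so that genes inside it have 3 copies, against 2 copies in WT mice. The controls were purchased wild-type mice of the C57BL/6J strain, and nothing in the labels says that they were littermates of the Dp16 mice. The labels do not say that replicates were separate animals, so the p-values measure the spread between these libraries.

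A ribosome holds close to equal numbers of each of its proteins, and cells keep their supply in step mostly through translation: the mRNAs of nearly all ribosomal proteins begin with a C and a run of pyrimidines, the 5′ terminal oligopyrimidine (TOP) tract, through which the kinase mTORC1 and the RNA-binding protein LARP1 control their use. A gland whose acinar and duct cells export large amounts of protein depends on this machinery. In humans, loss of 1 copy of any of several of these genes causes Diamond-Blackfan anemia.

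None of the 85 genes lies inside the duplicated segment (chr16:75540514-97962622). Of the 3 members on chromosome 16, Rpl24, Rpl35a and Rpl39l, none is in the part that Dp16 mice have in 3 copies. Any difference in these genes is therefore in genes with a normal copy number.

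The tested genes were nearly all a little lower in Dp16 glands, but no single gene passed the test. The log2 fold change (Dp16 over WT) was below 0 for 80 of 83 members, against 48.9% of all 19358 genes tested. Its median was -0.21 over the members, or 0.867-fold, against 0.008 over all genes. By edgeR's quasi-likelihood test with Benjamini-Hochberg adjustment over all genes, no member was called at an adjusted p below 0.05, while 0.155% of all genes were called lower in Dp16 and 0.47% higher. At an unadjusted p below 0.05, 38 members were lower and none higher, against 11.9% of all genes lower. The groups did not overlap for 26 members, all lower in Dp16, against 6.96% of all genes lower and 7.11% higher with no overlap. DESeq2 called 9 members lower (4.2% of the genes to which it gave an adjusted p), and limma-voom with quality weights called 1 (0.77%). At an adjusted p below 0.10, edgeR placed 5 members lower (2.9% of all genes). With the replicate number as a block it called 3 (2.15%).

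The size of this shift depended on the scale. The values above are TMM-scaled counts scaled to a common library size (CPM), in which library sizes are adjusted on the assumption that most genes do not change. With plain library size, the members' median log2 fold change was -0.036 and 54 of 83 members were below 0. The median of all genes was then 0.18 higher in Dp16. The members' median lay below that of all genes by 0.215 under plain library size and by 0.214 under TMM. The share of all gene reads that fell in the 85 genes was 0.702%, 0.706%, 0.782% and 0.654% in the Dp16 libraries. It was 0.660%, 0.801%, 0.705% and 0.710% in the WT libraries. The groups overlap on this scale.

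Both subunits were shifted to a like extent. Small subunit members had a median log2 fold change of -0.19 (32 of 33 below 0), and large subunit members one of -0.21 (48 of 50 below 0). Per library, the median small subunit gene stood at -0.11, -0.15, -0.21 and -0.28 in Dp16, as log2 CPM minus the WT mean of each gene. In WT it stood at -0.076, 0.096, 0.083 and -0.103. The median large subunit gene stood at -0.14, -0.16, -0.24 and -0.25 in Dp16, and at -0.089, 0.090, 0.079 and -0.088 in WT. All 4 Dp16 libraries were below all 4 WT libraries for both subunits, but the WT libraries fell into a higher pair (replicates 2 and 3) and a lower pair (replicates 1 and 4). For the small subunit, Dp16 replicate 1 was only just below the lower WT pair. The summed CPM of small subunit genes was 0.746, 0.746, 0.753 and 0.715 of that of large subunit genes in Dp16 libraries. In WT libraries this ratio was 0.751, 0.748, 0.749 and 0.745. Dp16 replicate 4 was lower than the other libraries, and the other Dp16 values lay at the level of WT.

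**Figure D1:**
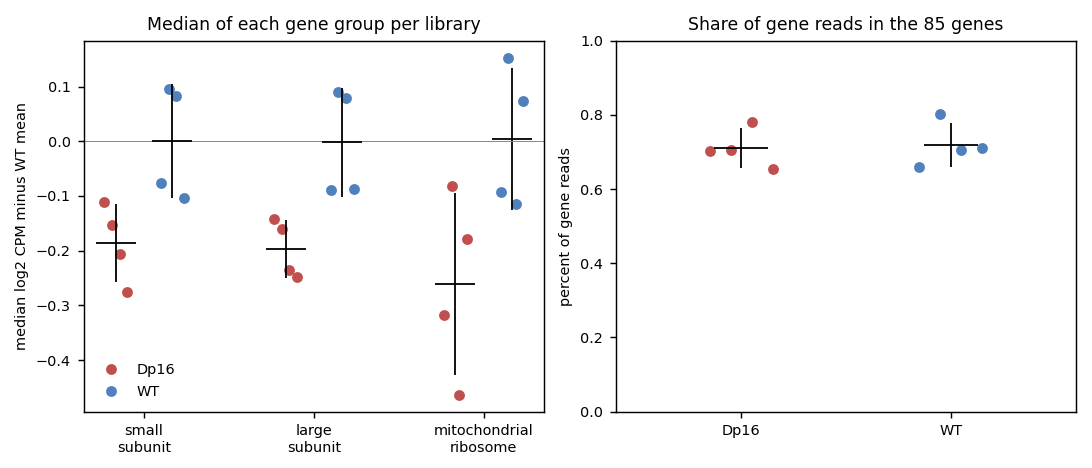
Left: for each library, the median over genes of log2 CPM minus the WT mean, for small subunit genes, large subunit genes and mitochondrial ribosomal protein genes; right: the percent of gene reads in the 85 genes, on an axis from 0 to 1 percent. Points are libraries, horizontal bars means and vertical bars SDs of 4 libraries; the Dp16 medians are all below the WT medians for the cytosolic subunits, from -0.11 down to -0.28 for the small subunit, while the shares of reads overlap.

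Members moved together from library to library. After the mean of each genotype was taken out, the median correlation between pairs of members over the 8 libraries was 0.52. It was 0.55 within the small subunit, 0.50 within the large subunit, and 0.70 among mitochondrial ribosomal protein genes. These correlations describe 8 libraries that share their scaling factors, and no value for all genes was computed beside them.

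**Figure D2:**
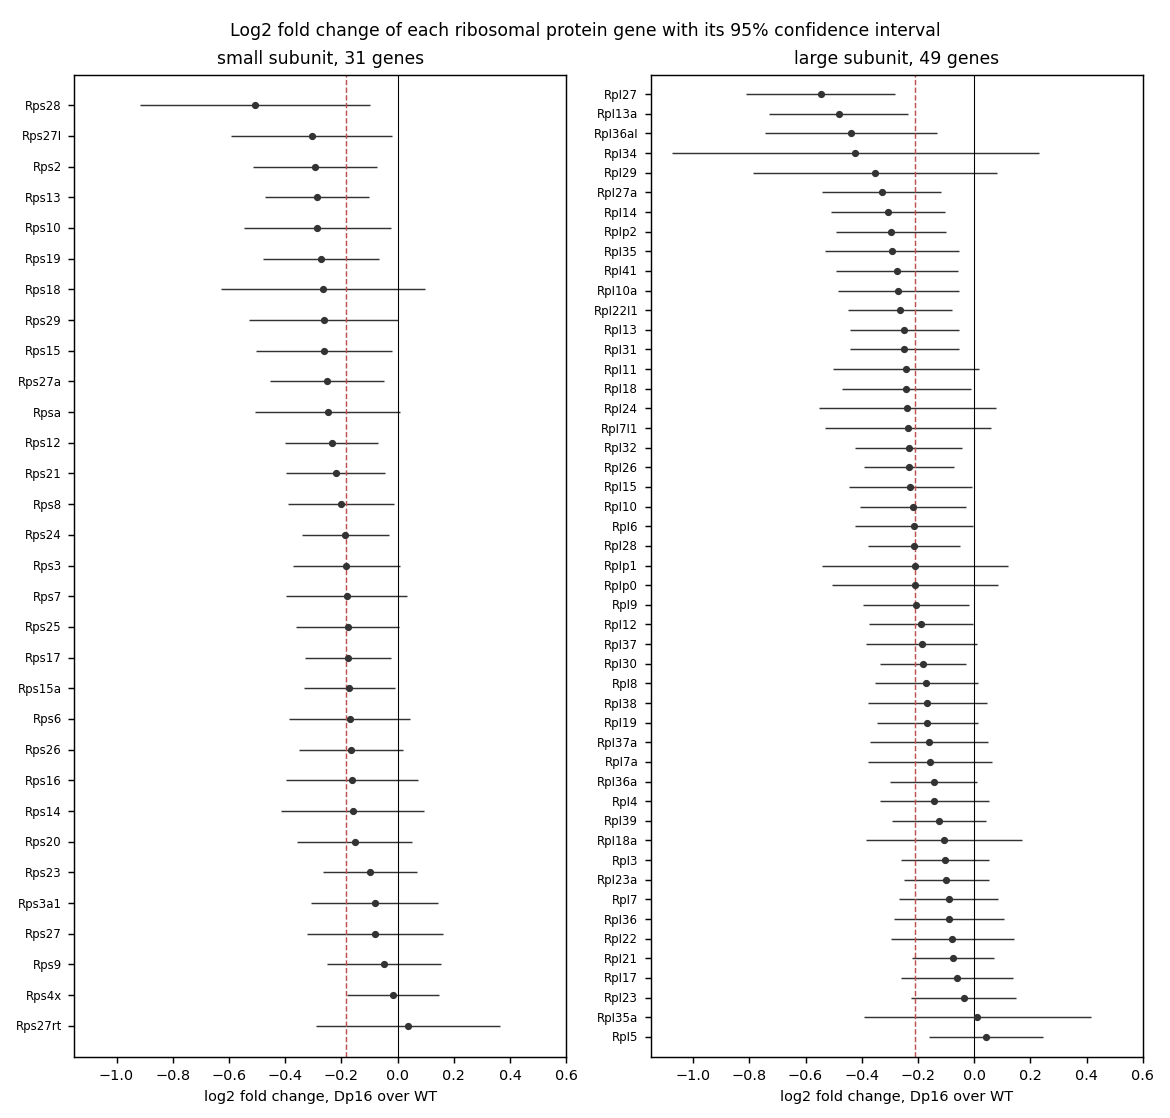
Log2 fold change (Dp16 over WT) of each tested member with its 95% confidence interval, small subunit left and large subunit right, sorted; the dashed line is the median of the genes drawn and Rpl3l, with an interval from -1.27 to 1.25, is left out, as are genes not reported here. Nearly all points lie between 0 and -0.4, with Rps28, Rpl27 and Rpl13a among the lowest and Rpl5, Rps27rt and Rpl35a just above 0.

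Rpl13a (ENSMUSG00000074129, chr7:45125558-45128761), a large subunit protein that in human cells also takes part in the GAIT complex that silences translation of inflammatory mRNAs, had 5.59, 5.98, 5.31 and 5.24 CPM in Dp16, against 6.61, 8.86, 7.56 and 7.88 CPM in WT. The groups were apart, with the lowest WT library (replicate 1) nearest to Dp16. The log2 fold change was -0.48 (SE 0.110, adjusted p = 0.0709 by edgeR).

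Rpl27, a large subunit protein and a human Diamond-Blackfan gene (ENSMUSG00000063316, chr11:101442298-101445529), had 10.8, 12.4, 12.4 and 11.3 CPM in Dp16, against 14.0, 20.1, 18.1 and 16.1 CPM in WT. The groups did not overlap. Its log2 fold change of -0.55 (SE 0.118) was the lowest of the members, with an adjusted p of 0.0667 by edgeR. Limma-voom called Rpl27 alone among the members (adjusted p = 0.0447), and DESeq2 called it as well (adjusted p = 0.00255). With each library left out in turn, its adjusted p by edgeR ran from 0.0504 to 0.166.

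Rps28, a small protein near the mRNA exit of the small subunit, showed a fold change as low but a wide spread. It had 32.4, 31.2, 30.6 and 24.7 CPM in Dp16, against 38.6, 44.9, 56.4 and 29.1 CPM in WT. WT replicate 4 was below 3 of the Dp16 libraries. Its log2 fold change was -0.51 (SE 0.182, adjusted p = 0.144 by edgeR).

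**Figure D3:**
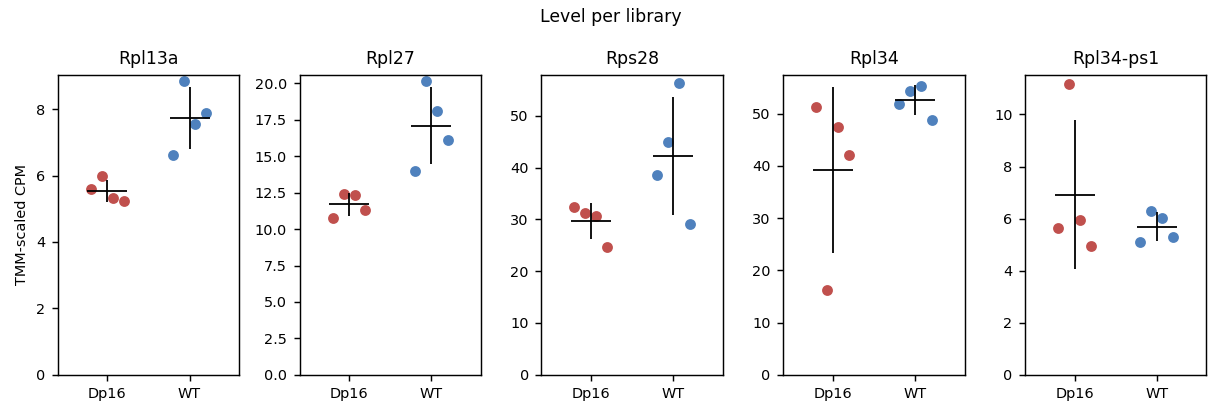
TMM-scaled CPM per library for Rpl13a, Rpl27, Rps28, Rpl34 and the processed pseudogene Rpl34-ps1; points are libraries, horizontal bars means and vertical bars SDs of 4 libraries, each panel on its own axis from 0. Rpl13a and Rpl27 have no overlap between Dp16 and WT, Rps28 does, and Rpl34 has 1 low Dp16 library (16.1 CPM) in which Rpl34-ps1 is high (11.2 CPM).

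Small subunit members with the smallest p included Rps13, Rps12, Rps2, Rps19, Rps21, Rps27a and Rps28, with log2 fold changes from -0.22 to -0.51 and adjusted p-values by edgeR from 0.098 to 0.145. Rps13 had 58.1, 54.4, 56.1 and 54.4 CPM in Dp16, against 62.5, 77.6, 68.8 and 63.0 CPM in WT, and the groups were apart (log2 fold change -0.29, SE 0.0819). Rps2, which sits at the mRNA entry, had 70.8, 70.6, 63.2 and 71.3 CPM in Dp16, against 84.7, 98.0, 71.9 and 83.7 CPM in WT. Its Dp16 and WT values were separated by less than 1 CPM, between Dp16 replicate 4 and WT replicate 3. Rps19, the gene most often mutated in Diamond-Blackfan anemia, had 59.5, 64.6, 55.2 and 54.3 CPM in Dp16, against 64.8, 75.5, 77.7 and 64.2 CPM in WT. Dp16 replicate 2 was inside the WT range (log2 fold change -0.27, SE 0.0917, adjusted p = 0.129 by edgeR). Rps27a, made as a fusion with ubiquitin, had 61.0, 60.1, 63.0 and 60.5 CPM in Dp16, against 65.7, 76.7, 83.7 and 65.1 CPM in WT, with the groups apart.

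Of the large subunit, Rpl27a, Rpl14, Rplp2, Rpl26, Rpl36al and Rpl22l1 followed Rpl27 and Rpl13a in order of p. Their log2 fold changes ran from -0.23 to -0.44, with adjusted p-values by edgeR from 0.0982 to 0.113. Rpl14 had 88.5, 79.6, 76.3 and 67.9 CPM in Dp16, against 97.0, 102, 96.3 and 90.7 CPM in WT. Rpl27a had 31.0, 31.3, 24.8 and 28.6 CPM in Dp16, against 33.4, 40.5, 35.1 and 36.4 CPM in WT. For both genes every Dp16 library was below every WT library. DESeq2 called both, with adjusted p-values of 0.0374 for Rpl14 and 0.0419 for Rpl27a.

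The P stalk recruits the GTPase translation factors and is made of Rplp0 with dimers of Rplp1 and Rplp2. Rplp2 had 56.2, 58.2, 47.0 and 48.5 CPM in Dp16, against 60.3, 68.5, 64.4 and 64.5 CPM in WT, with the groups apart (log2 fold change -0.30, SE 0.0870, adjusted p = 0.103 by edgeR). Rplp1 had 173, 195, 164 and 244 CPM in Dp16, against 197, 260, 244 and 199.6 CPM in WT, with Dp16 replicate 4 among the high WT values (log2 fold change -0.21, adjusted p = 0.391). Rplp0 had 207, 224, 191 and 191 CPM in Dp16, against 219, 278, 259.6 and 185 CPM in WT. Its groups overlap, with WT replicate 4 the lowest of all 8 libraries (log2 fold change -0.21, adjusted p = 0.340).

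Rpl5 and Rpl11 form a particle with 5S ribosomal RNA that joins the large subunit and, when free, binds Mdm2 and holds back the breakdown of p53. Rpl5 had 79.1, 66.3, 73.0 and 66.7 CPM in Dp16, against 62.7, 71.1, 77.0 and 66.1 CPM in WT. These ranges coincide (log2 fold change 0.04, SE 0.0897, adjusted p = 0.795 by edgeR). Rpl11 had 45.4, 42.5, 56.6 and 50.3 CPM in Dp16, against 56.4, 51.5, 68.2 and 54.4 CPM in WT, with an overlap (log2 fold change -0.24, adjusted p = 0.226).

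Rps6, the substrate of S6 kinase, had 33.4, 28.8, 31.7 and 26.0 CPM in Dp16, against 30.1, 35.8, 35.6 and 33.4 CPM in WT (log2 fold change -0.17, adjusted p = 0.290 by edgeR). Rpsa, which also has a form bound to laminin at the cell surface, averaged 124 ± 8.50 CPM in Dp16 and 148 ± 22.6 CPM in WT (SD, n = 4 each, as in all such values; log2 fold change -0.25, adjusted p = 0.216). Rps4x, on the X chromosome, had 165, 158, 149 and 145 CPM in Dp16, against 151, 162, 157 and 154 CPM in WT. It was among the members nearest to 0 (log2 fold change -0.02, 95% interval -0.18 to 0.15).

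Among the 19 tested members that are Diamond-Blackfan genes in humans, 17 had a log2 fold change below 0, with a median of -0.23, and edgeR called none. DESeq2, limma-voom and edgeR with the replicate block each called 1, which was Rpl27. That list is a subset of the members, whose median was -0.21. Rpl35a, one of the 2 above 0, varied over both groups, with 44.6, 29.3, 27.9 and 38.6 CPM in Dp16, against 29.6, 44.9, 34.4 and 30.3 CPM in WT.

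**Figure D4:**
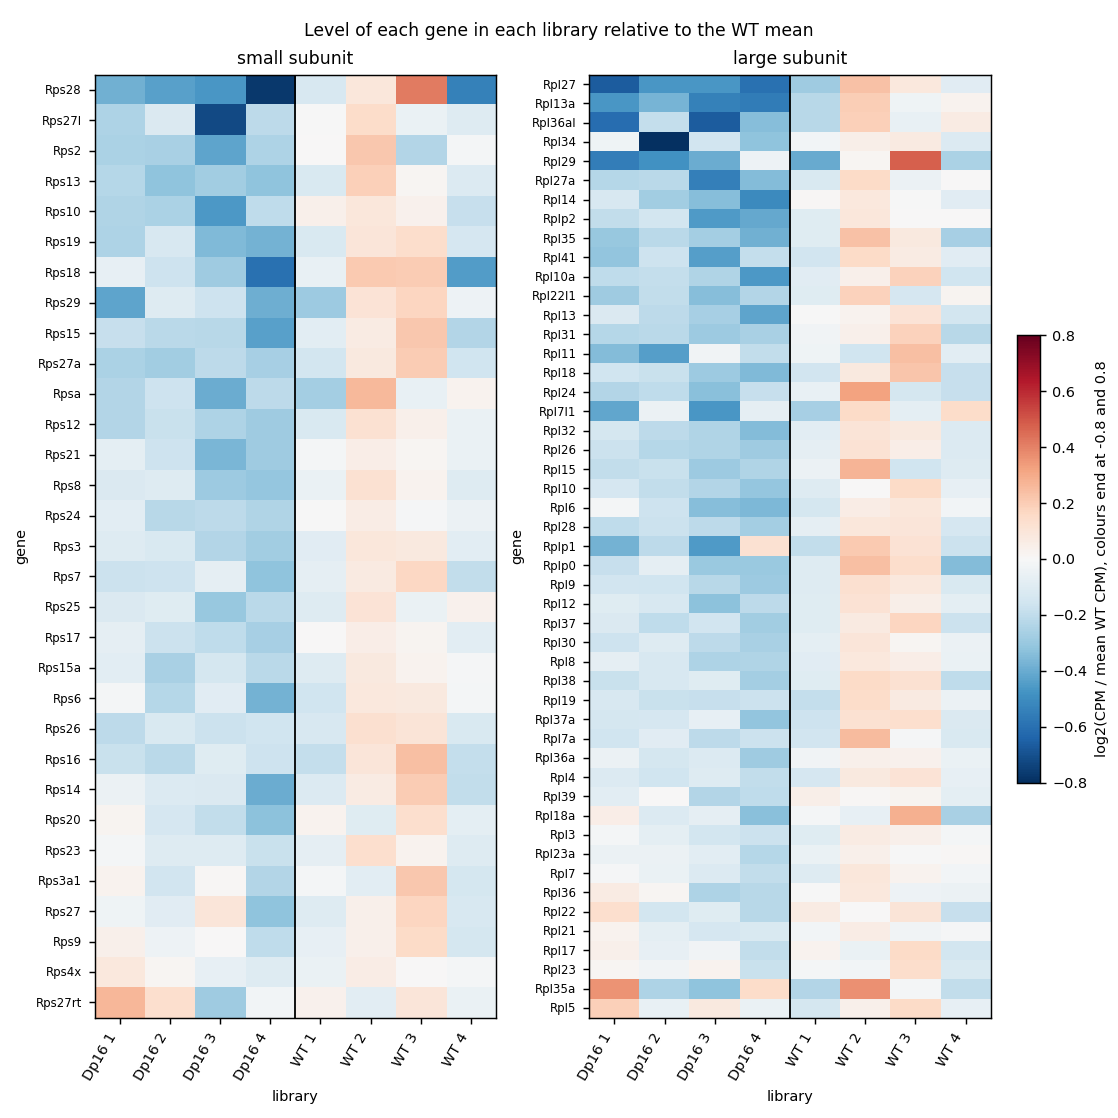
Heat map of log2(CPM / mean WT CPM) for tested members (rows, without Rpl3l and genes not reported here, sorted by fold change within each subunit) in each library (columns, Dp16 left of the black line and WT right of it). Blue is below and red above the WT mean; the Dp16 columns are mostly blue, WT replicates 2 and 3 are pale red, and Rpl34 in Dp16 replicate 2 stands out as dark blue.

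Rpl34 was singled out after its values were seen. It had 51.3, 16.1, 47.4 and 42.1 CPM in Dp16, against 51.9, 54.3, 55.3 and 48.8 CPM in WT. Dp16 replicate 2 had less than 0.5 times the level of each other library, whereas the median member in that library stood at -0.16 relative to the WT mean. Rpl34-ps1, a processed pseudogene of Rpl34 on chromosome 6 (chr6:71124610-71124963), had 5.63, 11.2, 5.94 and 4.95 CPM in Dp16, against 5.11, 6.31, 6.03 and 5.31 CPM in WT. It was thus highest in the library in which Rpl34 was lowest. The log2 fold change of Rpl34 was -0.42 (SE 0.290, adjusted p = 0.385 by edgeR), and -0.16 (adjusted p = 0.273) without Dp16 replicate 2.

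Promoters show what the members share beyond their name. In RefSeq's table of 300 bases around each start site (250 before, 50 after, GRCm38.p6), 65 of 85 members had an entry. A TOP-like run, written here as a C followed by at least 7 C or T on the gene's own strand and starting between 25 bases before and 50 after the start, was found in 50 of the 65 (76.9%), against 24.3% of 27025 genes. A gene with several entries counted when any of them held it. The runs of members with the smallest p and of members with a fold change near 0 are shown to compare their starts. In windows of 30 bases, 5′ to 3′ on the gene's strand, capitals mark the longest run of a C followed by C or T, if at least 5 bases long. The first 5 have the smallest p among members with a run of that length, and the last 4 the fold changes nearest to 0 among members with an entry and a WT level of at least 10 CPM.
Rpl13a (chr7:45128722-45128751, minus strand): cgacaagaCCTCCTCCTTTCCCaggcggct
Rps13 (chr7:116334161-116334190, minus strand): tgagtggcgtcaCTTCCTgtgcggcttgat
Rpl27a (chr7:109519186-109519215, plus strand): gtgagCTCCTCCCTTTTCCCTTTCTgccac
Rpl14 (chr9:120571501-120571530, plus strand): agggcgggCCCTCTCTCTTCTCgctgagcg
Rplp2 (chr7:141447637-141447666, plus strand): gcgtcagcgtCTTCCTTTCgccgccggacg
Rpl35a (chr16:33056469-33056498, plus strand): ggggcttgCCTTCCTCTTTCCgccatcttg
Rps4x (chrX:102189347-102189376, minus strand): gcgcgcgcgcagCCTCCgaccctaatttct
Rpl23 (chr11:97782404-97782433, minus strand): gagtgggcggggCCTCCCgttcatatccca
Rpl5 (chr5:107900498-107900527, plus strand): cctacagccaCTCTTTCTCacgtcgcttgc

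Long runs stand in both groups: Rpl27a has one of 20 bases, and Rpl35a, with a fold change of 0.01, one of 13. In bases from the start site, the runs of members with the smallest p began at 3, 13, -4, -8 and -4 as listed. The runs of members with a fold change near 0 began at 25, 28, 19 and -20. Starts in the other members with an entry are not given here, and the part of position in the fold changes was not tested. The runs of Rps13, Rps4x and Rpl23 are shorter than the 8 bases of a TOP-like run, and Rpl27 had no run of 5 bases there. The median log2 fold change was -0.22 over the 49 tested members with a TOP-like run and -0.20 over the 14 tested members with an entry and without one.

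The ETS motif CCGGAAG, read by the GABP complex among other factors, stood on either strand in 26 of 65 members (40%), against 9.93% of all genes. Read on the opposite strand it is CTTCCGG, whose first 5 bases can be part of a pyrimidine run. Capitals mark it in the 3 members with the smallest p that hold it.
Rpl27a (chr7:109519015-109519044, plus strand): agctaccggggCTTCCGGgggcgggcgcca
Rplp2 (chr7:141447532-141447561, plus strand): gaaatgtcttcCTTCCGGtgcacccttttc
Rpl26 (chr11:68901559-68901588, plus strand): aacttacagaaCCGGAAGtcgcgtgtagtt

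Members with the ETS motif had a median log2 fold change of -0.23 (25 tested), and those with an entry and without it one of -0.20 (38 tested). The YY1 motif AAGATGG, on either strand, stood in 10 members (15.4%, against 7.28% of all genes), and TATAAA, on the gene's own strand in the 50 bases before the start, in 1 member (1.54%, against 3.15%).

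Gabpa, which encodes the DNA-binding part of GABP and lies in the duplicated segment, was the one called gene among the lists of regulators. It had 52.4, 60.2, 49.98 and 58.4 CPM in Dp16, against 37.3, 35.8, 33.2 and 37.4 CPM in WT. Every Dp16 library was above every WT library (log2 fold change 0.62, SE 0.0804, adjusted p = 0.0265 by edgeR). The call was lost without Dp16 replicate 1 or 4, or without WT replicate 2, 3 or 4, with a fold change from 0.57 to 0.67 whichever library was left out. Gabpb1, its partner on a normal copy number, averaged 8.20 ± 0.643 CPM in Dp16 and 9.28 ± 0.798 CPM in WT (log2 fold change -0.18, adjusted p = 0.283). The 7 transcription factors had a median of -0.036. Of the other 6 listed for these promoters, none was called, and Max had a log2 fold change of -0.18.

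Paralogs are genes related to a partner ribosomal protein gene, some of them used in particular tissues. For 7 pairs, the log2 ratio of paralog to partner was compared by an exact two-sided permutation test over 70 assignments, whose smallest possible p is 0.0286, with adjustment over the pairs. After adjustment over 7 pairs, a lone pair at that smallest p could not fall below 0.05. No ratio differed beyond the spread between libraries (smallest exact p = 0.171, all adjusted p at least 0.650), and the groups overlapped for every pair.

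Rpl22l1, which in mice is repressed by Rpl22, had log2 ratios of -1.09, -0.72, -0.92 and -0.69 to Rpl22 in Dp16, against -0.84, -0.49, -0.91 and -0.47 in WT. The difference of -0.18 had an exact permutation p of 0.229. Rpl22l1 itself had 41.1, 43.6, 39.5 and 42.5 CPM in Dp16, against 46.8, 56.9, 45.6 and 50.7 CPM in WT, with the groups apart. Rpl22 had a log2 fold change of -0.08 (adjusted p = 0.646 by edgeR).

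Rpl36al, a second gene for the Rpl36a protein, had log2 ratios of -2.89, -2.38, -2.89 and -2.39 to Rpl36a in Dp16, against -2.52, -2.19, -2.43 and -2.22 in WT (difference -0.30, exact permutation p = 0.171). Its own log2 fold change was -0.44 (SE 0.137, adjusted p = 0.112 by edgeR) and that of Rpl36a was -0.14 (adjusted p = 0.229). Rps27l, which is induced by p53 in human cells, had log2 ratios of -0.795, -0.61, -1.40 and -0.47 to Rps27 in Dp16, against -0.48, -0.47, -0.805 and -0.56 in WT (difference -0.24, exact permutation p = 0.371). Dp16 replicate 3 gave the lowest ratio, and without it the difference was -0.044. The ratio of Rpl7l1 to Rpl7 differed by -0.15, with an exact permutation p of 0.343.

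Paralogs known from other tissues were at or near the limit of detection. Rpl10l, of the testis, had 0 counts in all 8 libraries, which allows up to 3 counts, or 0.0259 CPM in the deepest library and 0.0330 CPM in the shallowest. Rpl39l, of the male germ line, had 0 to 4 counts. Their partners were abundant: Rpl10 averaged 170.5 ± 8.62 CPM in Dp16 and 198 ± 15.8 CPM in WT, and Rpl39 80.6 ± 6.08 CPM in Dp16 and 87.9 ± 3.31 CPM in WT. Rpl3l, of heart and skeletal muscle, had 12, 32, 8 and 17 counts in Dp16, against 4, 23, 20 and 19 counts in WT. No direction can be read from these counts. The difference in its log2 ratio to Rpl3 was 0.15 (exact permutation p = 0.80). Rps27rt, an intronless copy of Rps27, averaged 2.62 ± 0.417 CPM in Dp16 and 2.56 ± 0.147 CPM in WT, and its ratio to Rps27 differed by 0.11 (exact permutation p = 0.571). Rps4l, annotated in GENCODE M21 as a transcribed processed pseudogene and so not counted among the members, differed by 0.05 in its ratio to Rps4x (exact permutation p = 0.83).

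**Figure D5:**
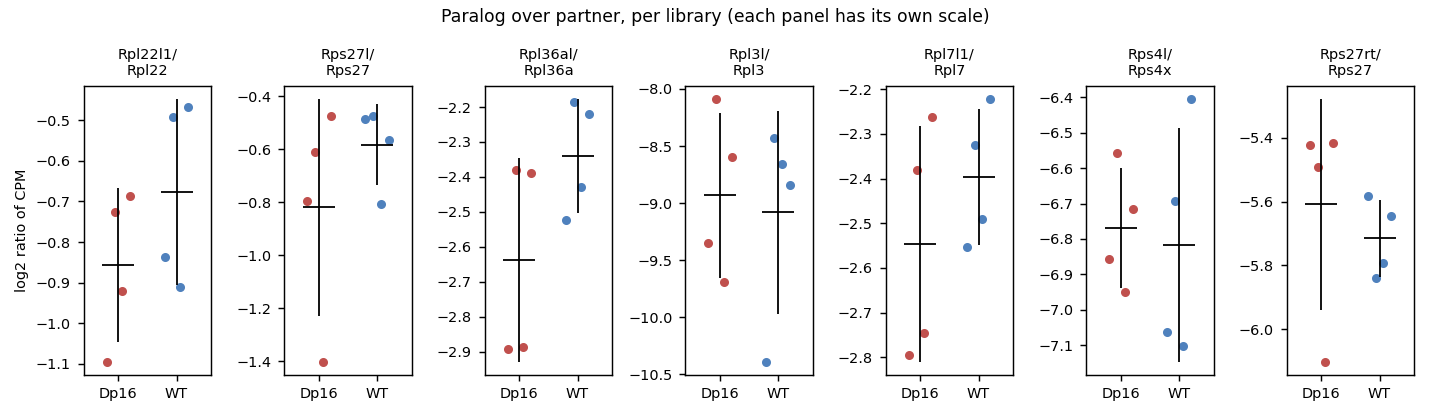
Log2 ratio of TMM-scaled CPM (prior count 2) of each paralog to its partner in each library, Dp16 left and WT right in every panel, with the mean and SD of 4 libraries; the panels have different scales. The groups overlap in all 7 panels, and the means differ by -0.30 (Rpl36al) to 0.15 (Rpl3l).

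Levels per length ranged widely between members. Per kilobase of the chosen transcript and averaged over both genotypes, the small subunit ran from 6.93 CPM per kb for Rps27rt, 7.14 for Rps10 and 21.02 for Rps20 up to 254 for Rps25, 285 for Rps14 and 383 for Rps27. The large subunit ran from 0.116 CPM per kb for Rpl3l, 4.55 for Rpl24 and 6.33 for Rpl13a up to 283 for Rpl41, 342 for Rpl32 and 420 for Rplp1. Rps20 is low by this measure beside a chosen transcript of 3706 bases, against a median of 640 in its subunit. The median was 133 CPM per kb for the small and 87.4 for the large subunit.

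Ribosomal protein genes have many processed pseudogenes, and a read that aligns to several places was not assigned to a gene. Of 300 ribosomal protein pseudogenes counted, 226 had at least 1 read in some library. The pseudogenes together took 0.0043% to 0.0081% of gene reads in Dp16 and 0.0056% to 0.0094% in WT. The share of a member's 50-base words found in no other gene's transcript ran from 1.35% (Rps27) to 100% (Rpl3l, for example), with a median of 45.5%. Genes that overlap the member were not counted as other genes here. Rps27 has the highest level per kilobase of its subunit and the lowest share of such words, while Rps10 (16.3%) and Rpl24 (22.3%) are low in both. Over the 83 tested genes Spearman's rho between this share and the level per kilobase was 0.05, and between this share and the log2 fold change 0.02. Identical words do not settle where the aligner placed a read, since the read length is not given in the sources used here, and levels per length should be read with that limit.

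Other features split the members little. A small nucleolar RNA gene lies within 30 of the tested members, giving them a median log2 fold change of -0.18, against -0.21 for the 53 without. At least 1 other annotated gene, counting those small RNAs, overlaps 50 of the 83, and without the strand setting of the counting, reads of antisense partners cannot be told apart. Transcript length goes with the shift across the genome: protein-coding genes in the shortest of 4 bins by transcript (3609 genes, which hold 80 of the 83 members) had a median log2 fold change of -0.09, against -0.02, -0.007 and 0.007 in the longer bins. The members' median of -0.21 is below that of their bin, and the part of length in it was not tested.

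The mitochondrial ribosome, which is built from other genes, also had most of its genes below 0. Of its 77 tested protein genes 72 had a log2 fold change below 0, with a median of -0.27, and edgeR called none (adjusted p at least 0.0677). DESeq2 called 8 lower and 2 higher. Per library, their median stood at -0.32, -0.082, -0.46 and -0.18 in Dp16, against -0.093, 0.15, -0.12 and 0.073 in WT. These groups overlap, unlike those of the cytosolic subunits, and the order of the libraries differs. Mrpl39 and Mrps6 lie inside the duplicated segment. Mrpl39 had 19.3, 24.3, 20.8 and 23.5 CPM in Dp16, against 14.3, 16.8, 15.5 and 17.4 CPM in WT, above WT in every library (log2 fold change 0.46, adjusted p = 0.0677). Mrpl30 averaged 21.95 ± 0.712 CPM in Dp16 and 27.3 ± 2.09 CPM in WT (log2 fold change -0.31, adjusted p = 0.0714), and Mrpl52 averaged 9.48 ± 0.647 CPM in Dp16 and 12.4 ± 0.941 CPM in WT (log2 fold change -0.38, adjusted p = 0.0733).

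Ribosomal proteins with other names included Rack1 and Fau, neither called and both below 0. Rack1, a scaffold at the head of the small subunit, had a log2 fold change of -0.19 (adjusted p = 0.281 by edgeR) and Fau one of -0.06. Of 18 translation factors and other TOP mRNAs, 15 were below 0 with a median of -0.11. EdgeR called none of them and DESeq2 called 1 lower. Eif3l, a subunit of initiation factor eIF3, had the smallest p (52.6 ± 1.71 CPM in Dp16 and 63.5 ± 3.79 CPM in WT, log2 fold change -0.27, adjusted p = 0.0766). Eif3k had a log2 fold change of -0.24 and Eef1d one of -0.19.

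Of 13 genes of mTORC1 and LARP1, 11 were below 0 with a median of -0.23 and edgeR called none. Mtor itself averaged 49.4 ± 1.88 CPM in Dp16 and 57.3 ± 1.82 CPM in WT (log2 fold change -0.21, adjusted p = 0.0963 by edgeR). Tsc2, which holds mTORC1 in check, had a log2 fold change of -0.30 (adjusted p = 0.0815). Larp4, a different gene from Larp1, had one of -0.36 (adjusted p = 0.0965). Larp1 itself had a log2 fold change of -0.29 (adjusted p = 0.120 by edgeR). DESeq2 called 5 of the 13 lower, and edgeR with the replicate block 1. The 2 genes above 0 were Tsc1 (0.10), the partner of Tsc2, and Eif4ebp1 (0.26), which holds back the initiation factor eIF4E.

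Of 16 chaperones of ribosomal proteins and factors of late maturation, 13 were below 0 with a median of -0.20. EdgeR called none of them, and 1 with the replicate block. Grwd1, whose yeast counterpart is a chaperone of Rpl3, averaged 3.501 ± 0.577 CPM in Dp16 and 5.73 ± 2.29 CPM in WT (log2 fold change -0.71, adjusted p = 0.155 by edgeR). The log2 fold change was -0.56 for Pno1 and -0.34 for Nob1, which act in the last steps of small subunit maturation. Of the genes for the breakdown of unassembled proteins, Ube2o had a log2 fold change of -0.17 and Huwe1 one of -0.08, and neither was called. The 7 genes of the Mdm2 and p53 response had a median of -0.01, with -0.14 for Ccng1, -0.11 for Mdm2 and 0.10 for Mdm4, and none was called.

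Markers of other cells moved with genotype and are given beside these results, since in whole glands fewer cells of a type and less RNA per cell cannot be told apart. All 18 lymphocyte markers had a log2 fold change above 0, with a median of 2.19. EdgeR called 1 of them higher, DESeq2 17 and limma-voom 3. Their summed level was 32.7, 11.9, 51.3 and 22.7 CPM in Dp16, against 10.6, 8.86, 7.59 and 6.26 CPM in WT. All 9 tested acinar markers were below 0. EdgeR called none of them, DESeq2 3 and limma-voom 1. All 10 listed acinar markers together had a summed level from 211195 to 286426 CPM in Dp16 and from 235442 to 335296 CPM in WT. Nearly all of this sum was the marker Mucl2, with 285176, 242736, 210317 and 212836 CPM in Dp16. In WT Mucl2 had 333956, 234361, 289855 and 267771 CPM. Aqp5, the water channel of acinar cells, averaged 66.6 ± 12.9 CPM in Dp16 and 106 ± 7.96 CPM in WT. Of 8 granular duct markers 7 were below 0 and Klk1 was called lower (log2 fold change -0.70, adjusted p = 0.0358 by edgeR). The granular duct markers summed to 41548.8 to 92428.2 CPM in Dp16 and 73952.8 to 125446 CPM in WT. Of 8 macrophage markers 7 were above 0, none called by edgeR or DESeq2. Their sum was 257 to 440 CPM in Dp16 and 276 to 328 CPM in WT. Of 6 plasma cell markers 5 were above 0, with a median of 0.48 and a sum of 1649 to 2385 CPM in Dp16 and 1097 to 1745 CPM in WT. EdgeR called none of these and DESeq2 2. Of 6 myoepithelial and basal markers 3 were below 0 and 3 above, none called by edgeR and 1 by DESeq2, with a sum of 365 to 436 CPM in Dp16 and 386 to 462 CPM in WT. Skeletal muscle and adipocyte markers stayed under 2.5 CPM in sum in every library, and 1 of the 9 muscle markers was at 0 in all. At these low levels all 5 adipocyte markers were below 0, with a median log2 fold change of -1.84. Of 4 tested muscle markers 2 were below 0 and 2 above. EdgeR called none of either set, and DESeq2 called 1 muscle marker lower. The part of these cells in the ribosomal protein result was not tested.

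The libraries held 90790542 to 111805185 gene reads in Dp16 and 97847453 to 115729892 in WT. Reads that overlapped no counted gene were 19.2%, 18.4%, 20.7% and 20.8% of all reads in Dp16, against 15.7%, 13.8%, 14.6% and 15.9% in WT, with no overlap between the groups. TMM factors were 1.00 to 1.19 in Dp16 and 0.872 to 1.00 in WT. The part of these differences in the shift was not tested.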

How the data were processed

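Whole-number read counts per gene were deposited by the authors, 1 table per library. Tools listed in the submitters' processing notes are FastQC, STAR, HTSeq and DESeq2, with the build GRCm38. Per the labels, the library kit was stranded and removed ribosomal RNA. Versions and strand setting: not given in the sources used here. The 5 rows that name no gene (58.1% to 65.4% of reads, mostly reads with several alignments) were left out. Of 54838 gene numbers, 54809 matched GENCODE M21. Counts were tested in R 4.3.3 with edgeR 4.0.16 (filterByExpr, TMM, quasi-likelihood F-test, Benjamini-Hochberg adjustment over 19358 genes, adjusted p below 0.05), and the fit was tested on simulated data. Levels are TMM-scaled CPM, mean ± SD of 4 libraries. No pair of replicates of one genotype agreed within sampling noise. Words of 50 bases came from 1 transcript per gene. Promoters are RefSeq's. The members, lists and alternatives (DESeq2 1.42.0, limma 3.58.1, other scalings and filters, the replicate block, leaving out each library) were chosen with earlier results of these data known. Named genes are the paralog pairs, 8 members per subunit with the smallest p, 9 chosen by role, the 3 highest and 3 lowest levels per length in each subunit, and up to 3 per list. Some genes these rules take are not reported here. Rpl34 and Rpl35a were added after their values were seen. Tsc1 and Eif4ebp1 are named because their log2 fold changes were above 0, and Larp1 because its list bears its name. The 95% intervals come from the edgeR fit, which takes in the spread between libraries. Limits at 0 counts cover counting error only.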

Additional observations from a re-analysis of the deposited data

Results flagged for a closer look

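For 3 results, 1 value lay far from the other libraries of their genotype by a test for a single outlying value, out of 192 groups of 4 libraries checked, where chance gives about 1 in 20. Rps15 had 80.6 CPM in Dp16 replicate 4, against 93.4 to 95.9 CPM in the other Dp16 libraries. Rps2 had 63.2 CPM in Dp16 replicate 3, against 70.6 to 71.3 CPM in the others. The log2 ratio of Rps27rt to Rps27 was -6.10 in Dp16 replicate 3, against -5.49 to -5.42 in the others. Outside the gene counts, the share of reads overlapping no counted gene averaged 19.8% ± 1.16 in Dp16 and 15.0% ± 0.965 in WT (SD, n = 4 each).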

How the results depend on the processing

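The count of members called was 0 under both other scalings, TMM without the 1% most abundant genes, both other filters and each library left out. It was 9 with DESeq2 (among them Rpl27, Rpl13a, Rpl14, Rps13, Rpl27a, Rpl36al, Rplp2 and Rps12), 1 with limma-voom (Rpl27) and 5 at an adjusted p below 0.10 (2.9% of all genes were lower at that threshold). Over all genes 121 were called, but 328 with library size only, 223 with no expression filter, 1987 with DESeq2, 396 with limma-voom, 1308 at an adjusted p below 0.10, and 0 to 446 with a library left out. The cause was not tested. With library size only, the median log2 fold change was -0.036 for all members, -0.019 for the small and -0.041 for the large subunit. With a library left out it ran from -0.25 to -0.16 for all members, and 77 of 83 members were below 0 in every such fit.

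With the mean of each genotype taken out of every gene, same-numbered libraries correlated at 0.19, 0.13, 0.08 and 0.10, not every pair over 0.1. Dp16 replicates 1 and 4 correlated best with their own number, Dp16 replicate 2 about equally with WT replicates 2 (0.13) and 4 (0.13), and Dp16 replicate 3 best with WT replicate 1 (0.14). The samples were therefore treated as sharing only a number. With the replicate number as a block, 776 genes and 3 members (Rpl27 and Rpl36al among them) were called, and the log2 fold change of Rpl3l was 0.022.

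With library size only, 26 members turned above 0. Values are given here for 10 of them. With genes of other lists these were Ccng1 (0.024), Fau (0.12), Huwe1 (0.080), Mdm2 (0.063), Rpl22 (0.095), Rpl3 (0.064), Rpl36a (0.027), Rpl39 (0.041), Rpl3l (0.13), Rpl7 (0.077), Rps14 (0.016), Rps20 (0.018), Rps27 (0.10) and Rps4x (0.15). These shifts are of the size of the all-gene median on that scale. Rps4x was 0.014 with the CPM filter and 0.0065 with limma-voom, and Rps4l was -0.0028 with DESeq2. With a library left out, signs changed for Fau (-0.12 to 0.033), Rpl35a (-0.13 to 0.16), Rpl3l (-0.43 to 0.24), Rpl23 (-0.077 to 0.0014), Rpl5 (-0.013 to 0.085), Rps27rt (-0.048 to 0.13), Rps4l (-0.10 to 0.16) and Rps4x (-0.051 to 0.0022). The difference in log2 ratio ran from -0.29 to 0.40 for Rpl3l over Rpl3 and from -0.049 to 0.18 for Rps4l over Rps4x. Depth limits Rpl3l, Rpl10l and Rpl39l, and reads shared with pseudogenes limit the levels of the others.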
